A study of Mus musculus with 6 samples.

Results

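The G protein gamma subunits examined here were 10 genes of the Gng family: Gng2, Gng3, Gng4, Gng5, Gng7, Gng8, Gng10, Gng11, Gng12 and Gng13. They were chosen by name from 54532 gene IDs in 1 expression table, with the knockout-against-control FPKM values of these same libraries already known. Their differences between the groups are therefore a description, and no p-value is given for any of them. FPKM scales fragments by exon length and library size, so levels can be compared between genes. The comparison is less sure for members that share exon bases with other genes, where reads may not have been counted. Bscl2, whose exons overlap those of Gng3, was followed beside them and tested.

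The RNA came from mouse heart ventricles at E12.5, with 3 control (CTL) and 3 LSD1 conditional knockout (LSD1CKO) libraries. LSD1, encoded by Kdm1a, removes methyl groups from histone H3. The labels name neither the Cre driver nor the cells in which the gene was deleted, nor the alleles the controls carry. They also do not say whether the libraries came from separate embryos or litters, so p-values measure the spread between these libraries, which may be technical.

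Kdm1a stood at 30, 29.7 and 22.8 FPKM in controls 1 to 3 and at 10.7, 11.8 and 11 FPKM in knockouts 1 to 3 (ratio of means 0.405, limma adjusted p = 0.00274). Recovered reads summed to 17898946 to 20076022 per library. Cardiomyocyte markers were present in every library, as the labelled tissue implies, with a summed level of 8454 to 9978 FPKM and Myl2, the ventricular myosin light chain, as the highest (3375 ± 247 in controls and 3317 ± 97.4 FPKM in knockouts, SD, n = 3). Control 3 stood off from its own group in read numbers over all genes fitted. Its median chi-square per gene, for the split of recovered reads, was 3.01 against control 1 and 3.23 against control 2. The same quantity was 1.96 between controls 1 and 2 and 1.78 to 2 between knockouts. Knockout 3 and knockout 1 stood apart from the rest in sex-linked RNAs. Knockout 3 held 0 reads of Uty, Kdm5d, Eif2s3y and Ddx3y, all on the Y chromosome, and had 12.1 FPKM of Xist, the RNA that coats the inactive X chromosome. Knockout 1 held both, with 14.3 FPKM of Ddx3y and 1.11 FPKM of Xist, while controls and knockout 2 had at most 0.0125 FPKM of Xist. Ddx3y stood at 13.3, 13 and 13.8 FPKM in controls 1 to 3 and at 14.3 FPKM in knockout 2. The groups thus differed in their make-up by sex. Knockout 1 also had 5.24 FPKM of Sox10, a neural crest factor that reached at most 0.611 FPKM elsewhere. These genes were named after their values were seen. Results below are given with and without these libraries where they rest on them.

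Gamma subunits are small proteins that stay bound to a beta subunit, and the pair holds the alpha subunit of a heterotrimeric G protein at the membrane. When a receptor activates the G protein, the freed beta-gamma pair acts on its own effectors, among them the inwardly rectifying potassium channels that slow the atrial and nodal heartbeat, phospholipase C-beta, adenylyl cyclases and receptor kinases. Each gamma subunit is anchored by a lipid that is added to a cysteine near its carboxyl end, in the CaaX box, and the last residue of that box largely decides which lipid is attached: farnesyl for serine, geranylgeranyl for leucine.

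The family's coding ends are shown because they carry that anchor. Each line gives the last 4 codons and the stop codon of the GENCODE M21 transcript with the longest coding sequence (GRCm38), with the cysteine codon of the CaaX box in capitals. All transcripts of a gene that had an annotated stop codon shared the same end.
Gng5: TGCtcctttttgtag
Gng11: TGTgtcatttcataa
Gng12: TGCatcatcttatag
Gng2: TGCgccatcctttaa
Gng3: TGTgcgctcctctga
Gng8: TGCaccctgctctga
Gng7: TGCataattctctag
Gng13: TGCaccatcctatga
Gng10: TGTgctctactttga
Gng4: TGCaccatcctctaa
Every member but Gng11 ended in a leucine codon before the stop, and Gng11 had the serine codon tca. The coding sequences ran from 67 codons in Gng13 to 83 in Gng12, and that of Gng3 had 75.

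Nearly all of the family's summed FPKM in these ventricles came from a few genes. Gng5, Gng11, Gng12 and Gng2 together held 97.8% to 99.2% of the summed FPKM of the 10 members. Gng5 alone held 54% to 59.4% and Gng11 29.7% to 31.6%. Gng12 held 6.46% to 7.66% and Gng2 3.64% to 4.65%. In these shares Gng10 and Gng13 stand as listed. Of their exon bases, 72% and 51.6% are shared with other genes, and reads there may not have been counted. Over their unshared bases alone, their means over the 6 libraries were 0.464 and 0.707 FPKM. The first 4 places were the same in both groups, and the ranges of neighbours in that order did not overlap over the 6 libraries. Below them the ranges overlapped, and the order changed: Gng3 was 7th by mean level in the controls and 5th in the knockouts, with Gng8 moving from 5th to 6th and Gng7 from 6th to 7th. The summed level of the family was 268, 253 and 281 FPKM in controls 1 to 3 and 259.9, 244 and 251 FPKM in knockouts 1 to 3. These sums overlapped between the groups.

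**Figure D1:**
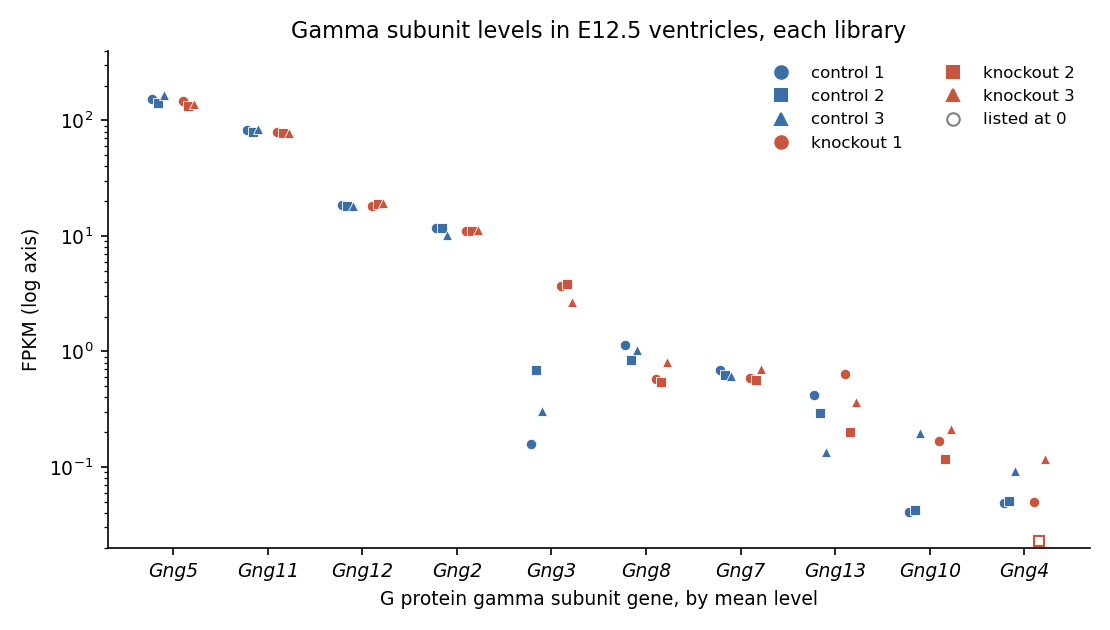
Level of each gamma subunit gene in FPKM on a log axis, with 1 symbol per library (blue controls, red knockouts, shape by replicate number) and genes ordered by mean level. Gng5 lies between 132 and 167 FPKM in all libraries, while Gng3 lies between 0.159 and 0.695 FPKM in controls and between 2.67 and 3.82 FPKM in knockouts.

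Gng5, a broadly expressed gamma subunit, had 152, 141 and 167 FPKM in controls 1 to 3 and 146, 132 and 139 FPKM in knockouts 1 to 3. The groups overlapped, through control 2 and knockout 1. The means were 153 ± 12.7 and 139 ± 7.17 FPKM (SD, n = 3), and the log2(FPKM + 1) change was -0.14 (SE 0.08), a scale that understates changes of low genes. The difference of the Gng5 means, -14.5 FPKM, was smaller in size than the span of the controls, from 141 to 167 FPKM. Gng5 lies at chr3:146499807-146505572 on the plus strand (mm10), and none of its exon bases is shared with another gene. Gng5-ps, a processed copy named after its values were seen, had 15, 13 and 16 reads in controls and 4, 9 and 14 in knockouts (limma adjusted p = 0.318). Reads of Gng5 and of such a copy could be split by the authors' counting.

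Gng11, the farnesylated member, had 83.1, 79.4 and 83.4 FPKM in the controls and 79, 77.2 and 77.4 FPKM in the knockouts. All knockouts lay below all controls, by a narrow margin between control 2 and knockout 1. The means were 82 ± 2.24 and 77.9 ± 0.974 FPKM (SD, n = 3), with a ratio of 0.95. The log2 change was -0.07 (SE 0.06), and -0.10 to -0.06 without 1 library. The sign of that change was positive, at 0.01, after quantile normalization and after rescaling to TPM. Gng11 lies at chr6:4003904-4008445 on the plus strand. It starts 6468 bases after the end of Gngt1, the rod photoreceptor gamma subunit, which was listed at 0 in all 6 libraries.

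Gng12 had 18.5, 18.1 and 18.1 FPKM in the controls and 18.1, 18.7 and 19.2 FPKM in the knockouts, and the groups overlapped. Its log2 change was 0.03 (SE 0.06), with means of 18.3 ± 0.238 and 18.7 ± 0.576 FPKM (SD, n = 3). Gng2 had 11.7, 11.8 and 10.2 FPKM in the controls and 11.1, 11.1 and 11.3 FPKM in the knockouts, and again the groups overlapped. The group means of Gng2 were both 11.2 FPKM, with an SD of 0.878 in controls and 0.0828 in knockouts (n = 3), and its ratio of means was 0.995. Of the Gng2 exon bases, 20.4% are shared with another annotated gene, and 2.64% of those of Gng12. Gng12 lies at chr6:66896397-67021350 on the plus strand and Gng2 at chr14:19872559-19977627 on the minus strand.

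Gng3, a gamma subunit best known from neurons, was the member whose groups stood farthest apart. It had 0.159, 0.695 and 0.305 FPKM in controls 1 to 3 and 3.71, 3.82 and 2.67 FPKM in knockouts 1 to 3. Every knockout lay above every control, and the lowest knockout was 3.84 times the highest control. The means were 0.386 ± 0.277 and 3.4 ± 0.636 FPKM (SD, n = 3), an 8.8-fold ratio and a log2 change of 1.67 (SE 0.17). The controls spread more widely than the knockouts, with a highest-to-lowest ratio of 4.36 against 1.43. Behind these values were 5, 20 and 10 reads in the controls and 110, 122 and 78 reads in the knockouts, so the control level rested on 35 reads in all. The fold therefore depends on the controls: it was 14.6 without control 2 and 6.81 without control 1. Without knockout 1 it was 8.4, and without knockout 3 it was 9.75. In FPKM the difference of the Gng3 means was 3.01, against a summed family level above 244 FPKM in every knockout. Among the 6 less abundant members, whose sum was 2.37 to 2.55 FPKM in controls and 4.88 to 5.74 FPKM in knockouts, Gng3 held 6.39%, 27.2% and 12.9% in the controls and 64.7%, 72.8% and 54.7% in the knockouts.

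Gng3 passed the filter on low values, which asked for 0.5 FPKM or more on average, only through the knockouts, so it had to differ to be fitted. Of the 10 members, 7 passed that filter, and 1 of them, Gng3, was past the threshold of limma's adjusted p. Over all 14149 genes fitted, 2.37% were past it in either direction. The groups did not overlap for 3 members, Gng3, Gng8 and Gng11, and for 21.4% of all genes fitted. Nothing is read from these counts, since the members were chosen with this contrast known.

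**Figure D2:**
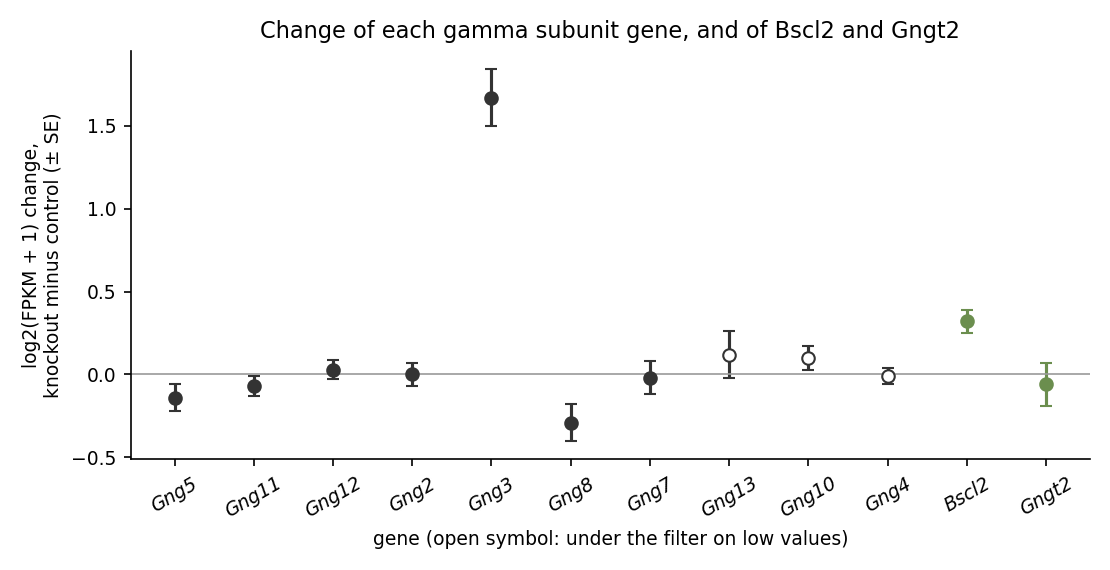
Change of each gene on the log2(FPKM + 1) scale, knockout minus control, with bars of 1 SE from limma; open symbols are genes under the filter on low values, and green symbols are Bscl2 and Gngt2, which are no members. Gng3 lies at 1.67, and the other 9 members lie between -0.29 and 0.12.

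Bscl2, which encodes the lipid droplet protein seipin, lies on the opposite strand to Gng3. Gng3 spans chr19:8836933-8839194 on the minus strand and Bscl2 chr19:8837467-8848683 on the plus strand. They share 398 exon bases, which are 24.2% of the 1643 exon bases of Gng3, and these lie in the last exon of Gng3 and the first exon of Bscl2, 1330 to 1727 bases downstream of the annotated Gng3 start. The library kit does not mark strand. Bscl2 had 5.72, 5.35 and 5.24 FPKM in the controls and 7.56, 6.65 and 6.86 FPKM in the knockouts. All knockouts lay above all controls, but Bscl2 did not pass the test (5.44 ± 0.256 against 7.02 ± 0.479 FPKM, SD, n = 3; ratio 1.29, log2 change 0.32, SE 0.07, limma adjusted p = 0.0812). It passed under 2 alternatives, rescaling to TPM (0.43, adjusted p = 0.0385) and voom on recovered reads (0.38, adjusted p = 0.0393, limma).

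The read numbers of both genes are given for the shared bases. If reads lay evenly along Bscl2, which was not measured, the 398 shared bases would hold 42, 37.9 and 40.2 reads in controls 1 to 3 and 54.4, 51.4 and 48.7 reads in knockouts 1 to 3. In every control the whole of Gng3 had fewer reads than that. The mean of this quantity differed between the groups by 11.5 reads, while the mean read number of Gng3 differed by 91.7, from 11.7 to 103. The part of Bscl2 reads in the Gng3 values was not tested. Elsewhere in the table, of 454 genes whose every exon base lies under exons on the opposite strand, 99.3% were listed at 0 in all 6 libraries, against 58.3% of 42753 genes with no shared exon base. Among protein-coding genes alone these shares were 97.1% of 35 and 26.7% of 15460. Genes lying wholly under opposite exons thus mostly had no counted reads. Whether reads on the shared bases of Gng3 were counted was not tested. If no read on shared bases was counted, Gng3 over its other 1245 bases stood at 0.21, 0.917 and 0.402 FPKM in the controls and 4.9, 5.04 and 3.52 FPKM in the knockouts.

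**Figure D3:**
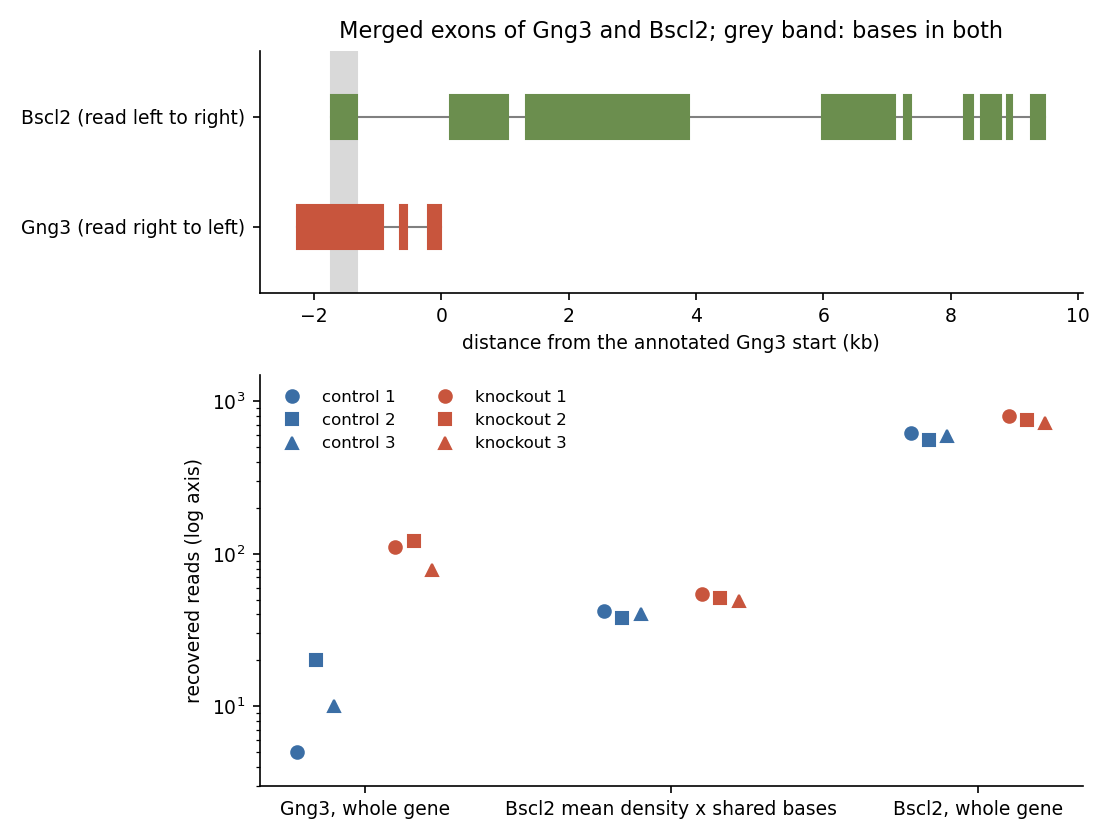
Top, merged exons of Gng3 and Bscl2 by distance from the annotated Gng3 start in kb, with the shared bases as a grey band. Bottom, recovered reads per library on a log axis for Gng3, for the shared bases at the mean density of Bscl2, and for Bscl2; Gng3 goes from 5 to 20 reads in controls to 78 to 122 in knockouts.

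A second start of Bscl2 faces Gng3. In the RefSeq table (GRCm38.p6) it lies 82 bases from the Gng3 start, on the other strand. The start of Gng5 has a like layout, with Spata1 as the opposite neighbour. The bases between each pair of first exons are shown for the member that differed most between the groups and for the most abundant member, read along the member's strand, with CpG dinucleotides in capitals: chr19:8839247-8839327 on the minus strand for Gng3 and chr3:146499754-146499806 on the plus strand for Gng5.
Gng3: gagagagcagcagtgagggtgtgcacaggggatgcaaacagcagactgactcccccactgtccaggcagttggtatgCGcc
Gng5: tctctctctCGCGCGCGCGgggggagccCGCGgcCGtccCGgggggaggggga
The stretch of Gng3 held 1 CpG in 81 bases and that of Gng5 9 in 53 bases. Over the full 250 bases before the RefSeq start, Gng3 had 2 CpG dinucleotides, a number that 29% of 32851 such windows did not exceed, and Gng5 had 44, which 0.539% of the windows reached. Such windows were found for 9 of the 10 members, 13 windows in all, and none for Gng11. The other 2 windows with 2 CpG dinucleotides belonged to a further start of Gng7 and to the first start of Gng13. The first start of Gng7 had 15 and the further start of Gng13 had 25.

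LSD1 works in the CoREST complex, which the factor REST can bring to neuronal genes through its RE1 element. The 2 parts of that element were searched on both strands, as exact matches of TTCAGCACC and GGACAGCGC, which do not overlap. Neither was found in any of the 13 windows, Gng3 included, and they occurred in 0.301% and 0.304% of all windows. No match says only that these letters are not in these 250 bases.

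Gng8, known from olfactory and vomeronasal neurons, had 1.14, 0.849 and 1.02 FPKM in the controls and 0.582, 0.542 and 0.809 FPKM in the knockouts. All knockouts lay below all controls, but the lowest control was only 1.05 times the highest knockout. The means were 1 ± 0.146 and 0.644 ± 0.144 FPKM (SD, n = 3), with a ratio of 0.642. The log2 change was -0.29 (SE 0.11). The values rested on 32, 23 and 30 reads against 16, 16 and 22. Over the 12 alternatives the change of Gng8 ran from -0.64 to -0.24, with -0.36 to -0.24 without 1 library. It lies at chr7:16891786-16895436 on the plus strand and shares no exon base.

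Gng7, a subunit abundant in the striatum of the brain, had 0.687, 0.623 and 0.616 FPKM in the controls and 0.585, 0.572 and 0.71 FPKM in the knockouts. The groups overlapped, with means of 0.642 and 0.622 FPKM and a log2 change of -0.02 (SE 0.10). Gng7 lies at chr10:80948624-81014945 on the minus strand.

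Gng13, Gng10 and Gng4 were under the filter and had fewer than 10 reads in every library. A difference of moderate size was therefore not detectable at these read numbers. Gng13, the gamma subunit of taste cells, had 6, 4 and 2 reads in controls and 9, 3 and 5 in knockouts, and 51.6% of its exon bases are shared with Chtf18 on the opposite strand. Its levels were 0.421, 0.291 and 0.134 FPKM against 0.644, 0.2 and 0.362 FPKM. Gng10 had 1, 1 and 5 reads in controls and 4, 3 and 5 in knockouts. Its level is uncertain, because 72% of its exon bases are shared with Gm20503 on the same strand. Gm20503 was listed at 0 in all 6 libraries, and all of its own exon bases are shared. Of 702 genes whose every exon base lies under a same-strand gene, 98% were listed at 0 in all 6 libraries. Among protein-coding genes alone this was 93.2% of 117. Whether reads on the shared bases of Gng10 were counted was not tested. If no read on shared bases was counted, the other 368 bases of Gng10 gave a mean of 0.464 FPKM and the other 374 bases of Gng13 a mean of 0.707 FPKM over the 6 libraries. Gng4 shares no exon base, and it had 3, 3 and 6 reads in controls and 3, 0 and 7 in knockouts. The groups overlapped for all 3 genes. Gng13 lies at chr17:25717171-25719406, Gng10 at chr4:59035088-59041903 and Gng4 at chr13:13784059-13827896, all on the plus strand.

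Of the gamma genes outside the 10, Gngt2, the cone photoreceptor subunit, had 5.92, 5.39 and 7.67 FPKM in controls and 5.42, 6.97 and 5.55 FPKM in knockouts. That level was above those of 6 of the 10 members in the controls, and it did not pass the test (limma adjusted p = 0.859). Its coding end reads TGTgtgctaagctga, with a serine codon as in Gng11. Gng14 was not matched in the table.

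Genes that act with gamma subunits were followed in 7 lists of 115 genes, of which 85 passed the filter. By limma's adjusted p, 3 rose in the knockout and 0 fell, which is 3.53% of those fitted, beside 1.91% higher and 0.466% lower over all genes fitted. All 3 were effectors of the beta-gamma pair. Counts of genes with an unadjusted p under 0.05 are given for each list below. Over all 14149 genes fitted, 2274 were under it (limma).

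The 5 beta subunits, the obligate partners, were all fitted, and 0 passed the test in either direction (2 had an unadjusted p under 0.05). Their median log2 change was -0.04, against -0.01 over all genes. Gnb2 stood at 115 and 112 FPKM and Gnb1 at 114 and 108 FPKM in controls and knockouts. Of the 16 alpha subunits 11 were fitted and 0 passed (2 unadjusted), with a median of 0.06. Gnai2 was the most abundant, at 144 and 149.6 FPKM, and Gnai3 stood at 47.5 and 46.4 FPKM.

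Of the 24 listed effectors, 16 were fitted and 3 rose (5 unadjusted), with a median of 0.12 for the list. Kcnj3 encodes GIRK1, a subunit of the potassium channel that beta-gamma opens, and it had 0.904, 1.4 and 1.13 FPKM in controls and 2.21, 2.22 and 2.32 FPKM in knockouts. The groups did not overlap (ratio 1.96, log2 change 0.61, SE 0.10, limma adjusted p = 0.0302). Kcnj5 encodes GIRK4, the partner of GIRK1 in the heart, and it rose from 8.93 ± 0.746 to 12.1 ± 0.404 FPKM (SD, n = 3; ratio 1.36, log2 change 0.40, SE 0.08, limma adjusted p = 0.0402). Plcb3, a phospholipase C that beta-gamma stimulates, rose from 10.1 ± 0.252 to 13.1 ± 0.683 FPKM (SD, n = 3; ratio 1.29, log2 change 0.34, SE 0.06, limma adjusted p = 0.0435). Adcy6, the adenylyl cyclase with the highest level, did not pass, at 13 and 12.7 FPKM. These calls are near the threshold: after leaving out 1 library, Kcnj3 kept its call in 1 of 6 fits (without control 2), Kcnj5 in 1 (without control 3) and Plcb3 in 0, with the highest adjusted p at 0.113, 0.152 and 0.168. With no filter on low values all 3 calls were lost (limma adjusted p = 0.108, 0.0912 and 0.0765). All 3 were also lost with a block for replicate number (limma adjusted p = 0.0614, 0.0688 and 0.0661). Of the Kcnj3 exon bases, 31.1% are shared with another gene.

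Of 6 receptor kinases, some of which are recruited to the membrane by beta-gamma, 5 were fitted and 0 passed (2 unadjusted), with a median of -0.01. Grk2 stood at 15.7 and 15.8 FPKM and Grk6 at 12.2 and 11.1 FPKM. With voom, 1 of them, Grk3, passed. Of 22 RGS proteins and anchors, which speed the alpha subunit's return to rest, 12 were fitted and 0 passed (6 unadjusted), with a median of -0.04. Rgs19 stood at 15.3 and 15.4 FPKM and Rgs3 at 8.76 and 11.4 FPKM. Rgs5, named after its values were seen, had 1.84, 1.66 and 2.39 FPKM in controls and 0.998, 0.612 and 1.19 FPKM in knockouts, with a limma adjusted p of 0.0854. It passed, in the lower direction, with voom. The groups of Rgs5 did not overlap.

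The 17 genes listed for gamma lipid attachment and processing and for beta-gamma assembly were all fitted. Of these, 0 passed (0 unadjusted), with a median of -0.06. Cct5 and Cct2, subunits of the chaperonin that folds beta subunits, stood at 174 and 162 FPKM and at 145 and 140.5 FPKM. Of 25 receptors of the developing heart, 19 were fitted and 0 passed (6 unadjusted), with a median of 0.11. F2r, the thrombin receptor, stood at 46.4 and 58 FPKM and Ednrb, an endothelin receptor, at 31.6 and 40.5 FPKM. Without control 3, F2r, Ednrb and Ackr3 were past the threshold in the higher direction.

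**Figure D4:**
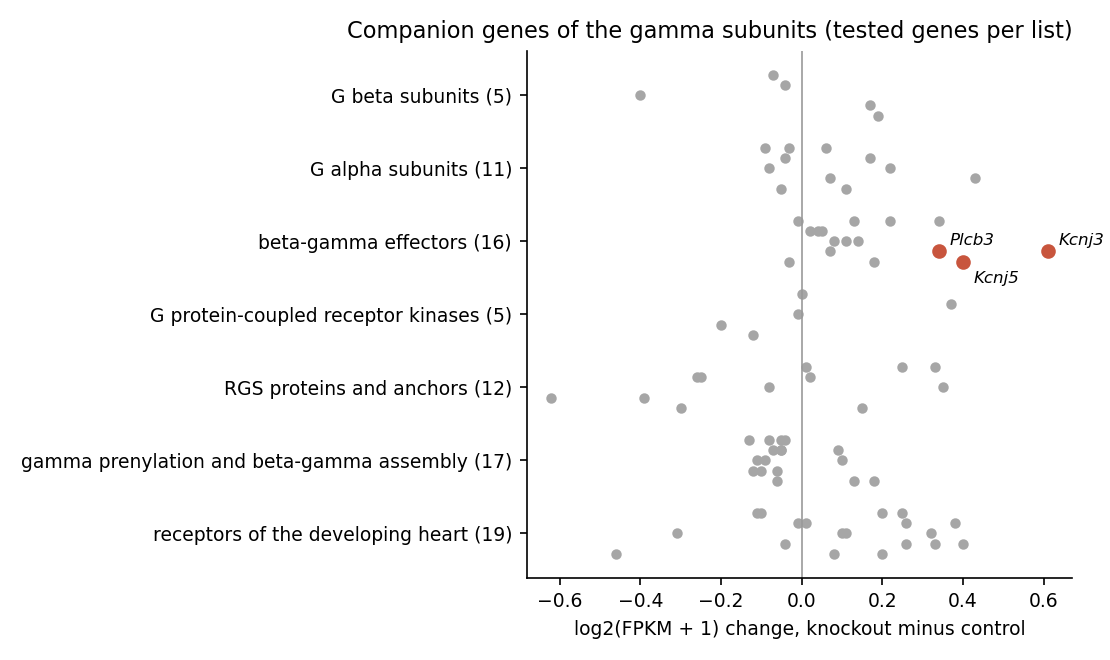
Change of each tested gene of the 7 lists on the log2(FPKM + 1) scale, knockout minus control, with the number of tested genes beside each list name; red symbols are genes past the adjusted p. Kcnj3, Kcnj5 and Plcb3 lie at 0.61, 0.40 and 0.34, and all are beta-gamma effectors.

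In these bulk libraries, fewer cells of a type and less RNA per cell cannot be told apart, so markers of the other cell types in the ventricle are given beside Gng3. The 14 neuron markers, none of them at 0 in all 6 libraries, summed to 5.83, 5.47 and 6.85 FPKM in controls and 7.39, 5.86 and 5.94 FPKM in knockouts. The groups overlapped, and 0 of the 3 that could be fitted passed (1 unadjusted, Nefl). Nefl had 0.803 ± 0.247 FPKM in controls and 1.25 ± 0.233 FPKM in knockouts (SD, n = 3), and its groups overlapped. Tubb3, the neuronal tubulin, was the most abundant, at 2.31 ± 0.787 and 2.28 ± 0.597 FPKM (SD, n = 3). Snap25, a synaptic vesicle fusion protein, was at most 0.0907 FPKM in any library. Elavl3, a neuronal RNA-binding protein, had 0.055, 0.131 and 0.12 FPKM in controls and 0.169, 0.299 and 0.366 FPKM in knockouts, and those groups did not overlap. Isl1, a factor of motor and sympathetic neurons, had 0.452, 0.653 and 0.811 FPKM in controls and 0.238, 0.143 and 0.41 FPKM in knockouts. Dbh, which makes noradrenaline, had 0.161, 0.376 and 0.327 FPKM in controls and 0.123, 0.0191 and 0.125 FPKM in knockouts. For both, all knockouts lay below all controls, the opposite order to Elavl3, and the other 11 neuron markers overlapped between the groups. Over all genes fitted, the groups did not overlap for 21.4%, so nothing is read from the order in these markers. Snap25, Elavl3, Isl1 and Dbh were under the filter and, like Nefl, were named after their values were seen. The 8 neural crest and Schwann precursor markers summed to 4.53 to 5.62 FPKM in controls and to 18.2, 4.28 and 4.93 FPKM in knockouts. Knockout 1 was the high library in that sum, and Gng3 stood at 3.71, 3.82 and 2.67 FPKM in the same knockouts. The part of neurons and of crest cells in the Gng3 values was not tested.

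The 6 macrophage and immune markers, led by C1qa, summed to 58.4 to 62.7 FPKM in controls and 65.5 to 71 FPKM in knockouts. These sums did not overlap, and 0 of the 5 fitted genes passed (2 unadjusted). The part of these cells in the Gng3 values was not tested. The summed levels overlapped between the groups for endothelial markers (195 to 268 and 231 to 286 FPKM, led by Eng), cushion markers (181 to 307 and 191 to 252 FPKM, led by Col1a1) and epicardial markers (191 to 227 and 206 to 240.2 FPKM, led by Upk3b). They also overlapped for erythroid markers (6893 to 15591 and 6996 to 14036 FPKM, led by Hbb-y) and megakaryocyte markers (27.8 to 95.5 and 26 to 60.9 FPKM, led by Pf4, with Gp1bb at 0 throughout). Over the 9 marker lists, 0 of 56 fitted genes passed by limma's adjusted p, and 6 had an unadjusted p under 0.05. Of these 6, 3 were endothelial or endocardial. Over all 14149 genes fitted, 2274 had an unadjusted p under 0.05 (limma). The endocardial marker Npr3 (14.6 and 21.2 FPKM) passed with voom. Without control 3, Npr3 and Emcn, an endothelial sialomucin (12.1 and 14.5 FPKM), were past the threshold in the higher direction. Both were named after their values were seen.

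**Figure D5:**
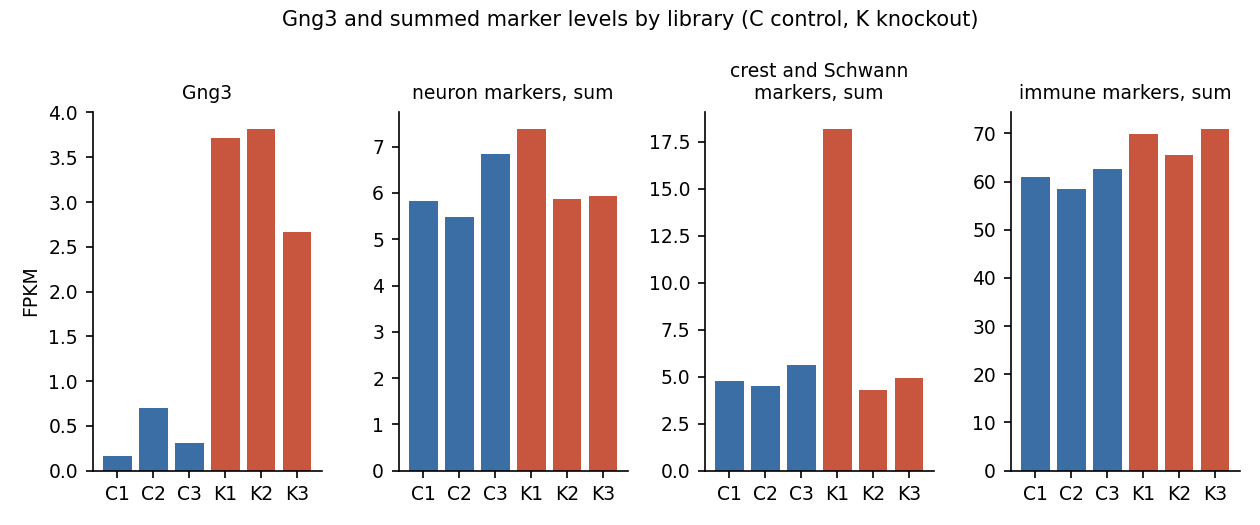
Level of Gng3 and summed level of the neuron, neural crest and Schwann precursor, and immune marker lists in FPKM, with 1 bar per library (blue controls C1 to C3, red knockouts K1 to K3). Gng3 is at least 2.67 FPKM in all knockouts, the crest sum is high in knockout 1 alone, at 18.2 FPKM, and the immune sum is at least 65.5 FPKM in all knockouts.

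The genes whose pattern was most like that of Gng3 were sought among 281 tested protein-coding genes with a control mean under 1 FPKM and a knockout mean of at least 1 FPKM. That rule selects genes that differ between the groups in the same direction, so likeness over the 6 libraries is a description with no test. Among the highest Pearson correlations of log2(FPKM + 1) with Gng3 were 0.996 for Oas1a, an interferon-induced enzyme, 0.984 for Gdf15, a stress-induced cytokine, and 0.981 for Ooep, an oocyte protein. Oas1a had 0.316, 0.686 and 0.385 FPKM in controls and 2.55, 2.19 and 1.78 FPKM in knockouts, with control 2 the highest control as for Gng3. Gdf15 went from a mean of 0.475 to 3.22 FPKM and Ooep from 0.463 to 1.85 FPKM. All 3 had their lowest knockout value in knockout 3, as Gng3 did.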

How the data were processed

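The authors deposited FPKM values for 54532 Ensembl IDs in 6 libraries. Per the submitters' processing notes, the tools were featureCounts 1.5.0-p3, HISAT2 2.0.5, fastp and CASAVA, with mm10. No source used here gives the counting options. Symbols and exons came from GENCODE M21 (54495 IDs named). FPKM times exon length gave whole reads within 0.02 for 98.1% to 98.5% of genes under 30 reads, and 1 read in 1 kb was worth 0.0515 to 0.0562 FPKM. The 14149 genes averaging 0.5 FPKM or more were fitted on log2(FPKM + 1) with limma 3.58.1 (R 4.3.3), with a mean-variance trend, genotype alone, two-sided, Benjamini-Hochberg adjusted p under 0.05. The script was tested on simulated data. Members and lists were chosen with earlier results of these data known. Genes named were the members, Bscl2, Kdm1a, other gamma genes, called genes and the 2 most abundant of each list, the most abundant marker per cell type, and the 5 genes most like Gng3. Some of the last are not reported here. Alternatives were other filters, pseudocounts, scalings, a replicate block, leaving out each library and, chosen after seeing the data, voom on recovered reads. Figures used matplotlib 3.10.9, numpy 2.4.6 and pandas 2.3.3 in Python 3.11.15.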

Additional observations from a re-analysis of the deposited data

How the results depend on the processing

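The 270 genes higher in the knockout became 132 at a mean of at least 5 FPKM, 110 with no filter, 411 with voom on recovered reads (chosen after seeing the data) and 109 to 281 without 1 library. The 66 lower genes became 12 with no filter, 40 after rescaling to TPM (with 369 higher) and 23 to 113 without 1 library. Companion genes higher, 3, became 0 with no filter, 6 with voom (Adcy1, Gabbr1 and Grk3 added) and 0 to 4 without 1 library; 1 was lower with voom, Rgs5. With the replicate block, 0 companion genes were higher (adjusted p = 0.0614 for Kcnj3, 0.0688 for Kcnj5 and 0.0661 for Plcb3) and 1 was lower, Rgs5, while all genes gave 220 higher and 64 lower. The labels do not say whether equal numbers pair the libraries. Deviations of same-numbered libraries correlated at -0.0021, 0.14 and 0.164, and those of differently numbered libraries at -0.189 to 0.0798. Bscl2, at 0.32, passed the test at 0.43 (TPM) and 0.38 (voom). Kdm1a passed in all 13 alternatives, from -1.35 to -1.16. Gng3 ran from 1.55 to 3.30 over 12 alternatives, with 2.98 at a pseudocount of 0.1 and 3.30 with voom. Rescaling to TPM moved the median of all genes from -0.01 to 0.06. The cause of these differences was not tested. Quasi-likelihood count tests were not run, since the deposited values are FPKM. Low read numbers limit Gng13, Gng10 and Gng4, under 10 reads in every library, and shared exon bases also limit Gng13 and Gng10.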
